A study of Mus musculus with 9 samples.

Results

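The organic ion and ATP-binding cassette (ABC) transporters of mouse liver were followed in a sequencing study of the RNA bound by HuR. The genes were taken by name from the deposited table: every gene name that starts with Slco, with Slc22a, or with Abc followed by a letter from a to g and a digit. Abcb11, the bile salt export pump, and names that contain -ps were left out. The rule gave 87 of 33732 gene names, all of them protein-coding. They are 14 Slco, 24 Slc22a, 16 Abca, 9 Abcb, 10 Abcc, 4 Abcd, 4 Abce and Abcf, and 6 Abcg genes.

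HuR is encoded by Elavl1. It is an RNA-binding protein that prefers stretches rich in U or in A and U, above all in 3′ untranslated regions (3′ UTRs), and is best known for stabilising the mRNAs it binds. Slco genes encode organic anion transporting polypeptides, and Slc22a genes encode transporters of organic cations, carnitine and organic anions. Both bring bile acids, hormones, drugs and metabolites from blood into hepatocytes. ABC proteins use ATP to move conjugates, phospholipids, sterols and other solutes out of cells or across organelle membranes, and the Abce and Abcf proteins, which have no membrane span, act in translation.

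RNA immunoprecipitation (RIP) was done without crosslinking on whole healthy liver of 8-week-old wild-type C57BL/6 mice, with 1 liver for each pull-down. There were 3 libraries each of HuR RIP, of RIP with control IgG and of Input, the RNA of the lysate. By the labels the groups shared strain, age and tissue, and HuR and IgG RIP differed in the antibody. The sources used here do not say whether HuR and IgG libraries of the same number came from the same liver, or give the sex of the mice. Levels are gene RPKM, that is, reads scaled for exon length and sequencing depth, summed from the authors' exon values, and 3 values in a row are those of libraries 1, 2 and 3 in that order. Input was available only as 1 combined column, called the Input mean here, so that it carries no error.

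The library sizes behind the values were 26.3 to 26.9 M reads for HuR and 15.9, 26.7 and 28.8 M reads for IgG 1 to 3, and between 27.9% and 60.5% of these reads lay in listed exons. The Input depth is unknown. All 10 hepatocyte markers checked were above 0 in each library, with summed levels of 1250 to 1274 RPKM in HuR RIP, 345 to 942 RPKM in IgG RIP and 938 RPKM in Input. The 6 cholangiocyte markers summed to 3.78 to 13.1 RPKM in HuR RIP and 0.0467 to 0.684 RPKM in IgG RIP, and the 6 stellate cell markers to 4.24 to 12.8 and 0.565 to 4.43 RPKM, the highest IgG library lying just above the lowest HuR library. For sinusoidal endothelium the sums were 2.19 to 6.22 RPKM in HuR RIP and 0.597 to 4.65 RPKM in IgG RIP, for Kupffer cells and macrophages 11.3 to 19.8 and 2.85 to 26.9 RPKM, and for blood cells 37.9 to 105 and 81.0 to 196 RPKM, all with overlap. No marker was at 0 in all 6 RIP libraries, and the part of these cell types in the results was not tested. In whole tissue, fewer cells of a type and less RNA per cell cannot be told apart. In the deposited header the RIP columns of libraries 1 and 2 of each group end in the letter M and those of library 3 in F, and the columns of IgG 2 and IgG 3, but not IgG 1 or any HuR library, carry an added r. No label explains these letters, and whether they bear on the levels of IgG 1 was not tested. The authors' fold columns number HuR 2 and HuR 3 the other way round. The names of the RPKM columns were followed. This does not affect the main comparison of HuR with IgG, but it bears on the replicate block and on correlations of same-numbered libraries.

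Of the 87 genes, 29 passed the filter on low values (a level of at least 0.5 RPKM in 3 or more of 6 RIP libraries). For 13 of them that exceeded Input in every HuR library, a site of 30 bases around the longest run of T in the longest annotated 3′ UTR is printed, because HuR binds runs of U. The sites are written 5′ to 3′ as DNA, with that run in capitals. Coordinates are those of GENCODE M21 (GRCm38, also called mm10). In 7 of the 13 the run was 7 bases or longer:
Slco1b2 (chr6:141686343-141686372, plus strand): ccactgtcttgTTTTTTTcttttgttttgg
Slco1a1 (chr6:141907959-141907988, minus strand): ctcagtggtcaTTTTTTTcatgtgtcctca
Slco2a1 (chr9:103088223-103088252, plus strand): aagatctcacTTTTTTTTTTccaattaaag
Slc22a30 (chr19:8344189-8344218, minus strand): tggtcattacaTTTTTTTattctagccata
Abcc2 (chr19:43837863-43837892, plus strand): ccttattatcaTTTTTTTTaaagtacgggc
Abcd3 (chr3:121760118-121760147, minus strand): gttaagcttgTTTTTTTTTaaaaaaaacaa
Abce1 (chr8:79684619-79684648, minus strand): taatttaacTTTTTTTTTTTagttcttaca

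In the other 6 the longest run was 3 to 6 bases, and these are shown to mark how little of such a run some of the genes with high HuR levels carry:
Slco2b1 (chr7:99658704-99658733, minus strand): caatacaatgtaTTTTTcactcagctccat
Slco1a4 (chr6:141806296-141806325, minus strand): aatgattggaacTTTTTTccctagcaattc
Slc22a7 (chr17:46432360-46432389, minus strand): ctgtctgcctgtgTTTatccagtctccaaa
Abcb4 (chr5:8959181-8959210, plus strand): tgttacagtataTTTTTaaaataaattcaa
Abcg8 (chr17:84699221-84699250, plus strand): actagcaaaatgTTTTTcgcttatctctgc
Abca6 (chr11:110176914-110176943, minus strand): tcccacaaacttgTTTTgtacagtagtgaa

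HuR RIP against IgG RIP asks which transporter mRNAs the HuR antibody held beyond carry-over. Most of the tested transporter mRNAs had a higher mean level with HuR than with IgG, led by the uptake carriers Slco1b2 and Slco2b1 and the canalicular exporter Abcc2, whereas Abcc6 and Abca2 had higher means with IgG. No single difference passed the threshold. limma, adjusted over 5510 tested genes, called 0 of the 29 transporters higher and 0 lower, where it called 0.672% of all tested genes (0.533% of the protein-coding ones) higher and 0.127% lower. Of all tested genes, 37 were called higher and 7 lower, and this split turned to 1 and 18 with libraries centred at their medians and to 50 and 342 with scaling by trimmed means of log ratios. An unadjusted p under 0.05 was reached by 13 transporters with higher HuR levels and by 0 with lower ones. The shares among all tested genes were 27.9% and 3.19%, and among protein-coding ones 33.5% and 0.33%. In 14 of the 29 every HuR library lay above every IgG library, against 31.3% of all tested genes and 38.9% of tested protein-coding genes. In 0 of the 29 every HuR library lay below every IgG library, against 3.48% and 0.634%. The log2 fold change was above 0 for 23 of the 29, against 79.1% and 90.4%, although Abca1, Abca6, Abca8a, Abcc9, Abcf2, Slc22a18 and Slc22a23 among these 23 turned negative under another setting. It was above the median of all tested genes for 18 of the 29, against 50% and 58.4%.

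The median log2 fold change of the 29 was 1.43, beside 0.92 for all tested genes and 1.08 for tested protein-coding genes. Over all 87 genes, most of them near 0, the median was 0.14. Since the filter keeps genes that are high with HuR (4 of the 29, among them Slco1a4, Abce1 and Abcf1, passed through the HuR libraries alone, so that the filter itself kept their groups apart), the 22 transporters with an Input mean of 0.5 RPKM or more were also counted. Of these, 8 had every HuR library above every IgG library, against 34.7% of protein-coding genes with that Input level, and 0 had every HuR library below, against 1.3%. Over the 22, the median log2 fold change was 0.90, beside 1.12. By these shares the transporters lay near other protein-coding genes.

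**Figure D1:**
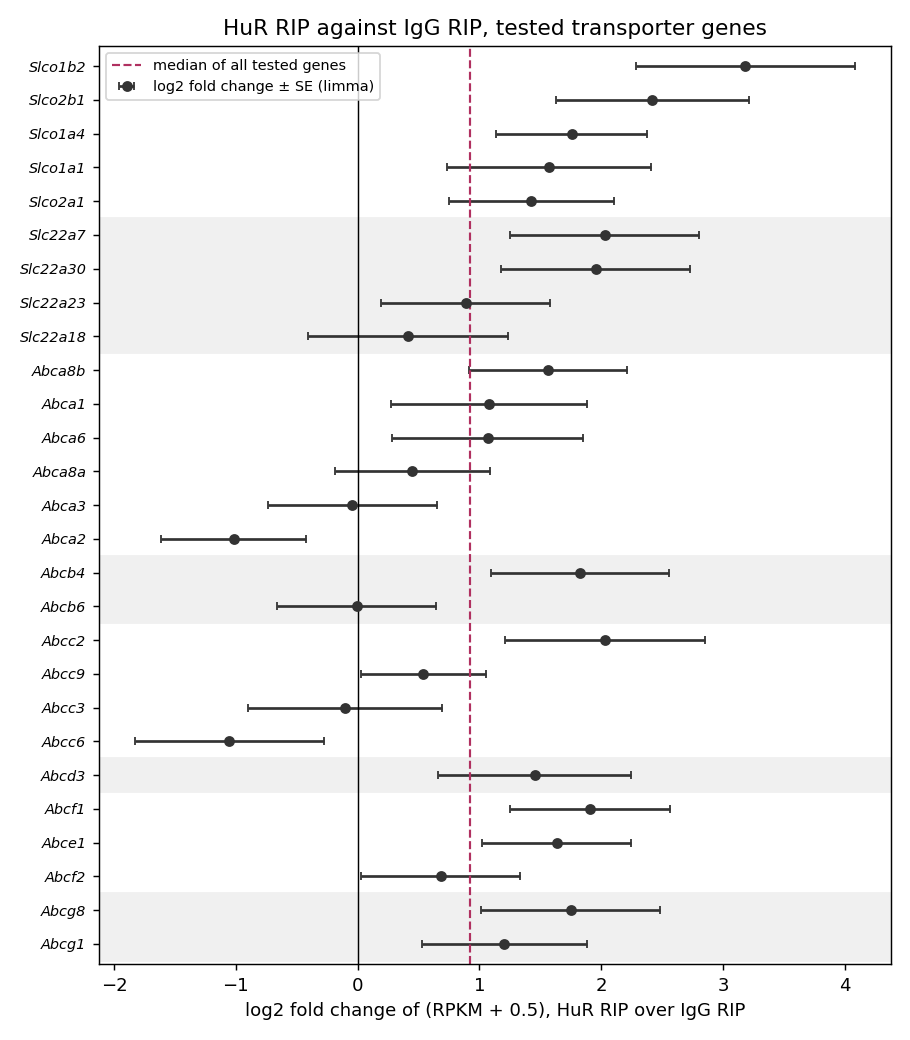
Log2 fold change of (RPKM + 0.5), HuR RIP over IgG RIP, for 27 of the 29 tested transporter genes, grouped by family in shaded and plain bands; points are limma estimates and bars are ± 1 standard error (3 HuR and 3 IgG libraries). The dashed line marks the median of all tested genes, 0.92. Slco1b2 lies furthest right at 3.18 and Abcc6 furthest left at -1.05, and no gene passed the threshold.

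The IgG libraries were spread widely. IgG 1 was the highest of the 3 IgG libraries for 23 of the 29 transporters, while HuR 3 was the lowest HuR library for 19. Without IgG 1, limma called 6 transporters higher, among them Slco1b2, Slco2b1, Abcc2, Slc22a7 and Abca8b, with 13.1% of all tested genes called higher. With a filter of 1 RPKM it called 2 higher, among them Slco1b2, with 4.19% of genes called higher. With only protein-coding genes in the test it called 9 transporters higher, with 18.5% of genes called higher; among them were Slco1b2 (adjusted p = 0.00398), Slco2b1 (0.0256), Abcf1 (0.0352), Slco1a4 (0.0371), Slc22a30 (0.0444), Slc22a7 (0.0461), Abcc2 (0.0479) and Abce1 (0.0479). These 9 include the 4 that passed the filter through the HuR libraries alone, among them Slco1a4, Abcf1 and Abce1. For these 4 the filter itself kept the groups apart, so their calls add no support. Abcf1 and Abca8b are outside the rule for named genes and were chosen after their values were seen.

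**Figure D2:**
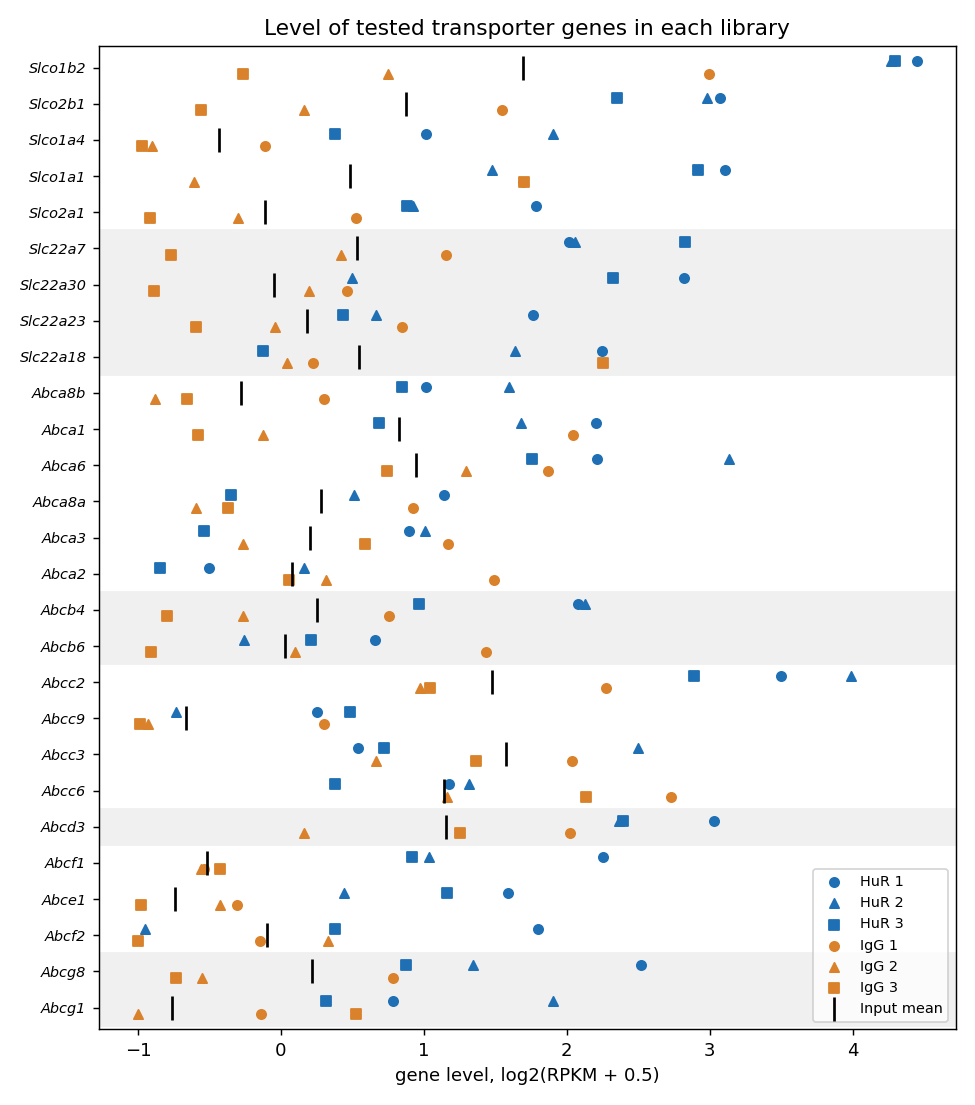
Level of 27 of the 29 tested transporter genes as log2(RPKM + 0.5), with 1 blue mark for each HuR library, 1 orange mark for each IgG library and a black bar for the Input mean; where marks coincide, as for IgG 1 and IgG 3 at Slco1a1, only 1 is visible. The HuR marks of Slco1b2 lie close together, between 18.8 and 21.3 RPKM, and its IgG marks spread from 0.331 to 7.46 RPKM.

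By summed HuR level the Slco genes stood highest of the groups. All 5 tested members had a positive log2 fold change under every alternative run. The share of all tested genes that stayed positive throughout was not counted. In the main fit 79.1% of all tested genes and 90.4% of protein-coding ones were above 0. All 5 also exceeded Input in each HuR library, which 68.9% of all tested genes and 76.1% of protein-coding ones did. Slco1a4 is 1 of these 5 but passed the filter through its HuR libraries alone. Its positive sign and its place above its Input mean of 0.240 RPKM thus follow from the filter. The summed level of the 14 Slco genes was 42.0, 36.3 and 33.2 RPKM across HuR 1 to 3, 14.0, 2.39 and 3.85 RPKM across IgG 1 to 3, and 5.90 RPKM in Input. The summed Slco level was thus higher in every HuR library than in any IgG library.

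Slco1b2 (chromosome 6, 141629518 to 141686646) encodes Oatp1b2, a carrier of the sinusoidal membrane that takes up bile acids, bilirubin conjugates and drugs. Its level was 21.3, 18.8 and 19.2 RPKM across HuR 1 to 3, and 7.46, 1.18 and 0.331 RPKM across IgG 1 to 3, with 2.73 RPKM in Input. These levels correspond to 2439 to 2798 reads with HuR and 47 to 583 reads with IgG. The groups did not overlap, and the HuR libraries differed little from each other while IgG 1 stood above the other IgG libraries. The log2 fold change was 3.18 (SE 0.90, limma adjusted p = 0.0623), or 2.26 above the median of all tested genes. With 19.8 ± 1.37 RPKM (SD, n = 3), Slco1b2 had the highest HuR level of the 87 genes, and its lowest HuR library lay above the highest of the next gene, Abcc2.

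Slco2b1 (chromosome 7, 99657804 to 99711340) encodes Oatp2b1, a carrier of steroid sulfates. Its level was 7.91, 7.42 and 4.61 RPKM across HuR 1 to 3, 2.43, 0.618 and 0.179 RPKM across IgG 1 to 3, and 1.33 RPKM in Input. The groups did not overlap, with a log2 fold change of 2.42 (SE 0.79, limma adjusted p = 0.0771). The antisense genes Gm15635 and Gm34280 overlap it on the opposite strand. Whether counting used strand is not given in the sources used here.

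Slco2a1 encodes the prostaglandin transporter. It was at 2.94, 1.40 and 1.34 RPKM across HuR 1 to 3 and at 0.942, 0.313 and 0.0291 RPKM across IgG 1 to 3, with 0.427 RPKM in Input, again without overlap (log2 fold change 1.43, SE 0.68, limma adjusted p = 0.154). A copy of the 5S ribosomal RNA gene, n-R5s89, lies within it on the opposite strand. Slco1a1 and Slco1a4 encode Oatp1a1 and Oatp1a4, carriers of bile acids and steroid conjugates, and lie beside Slco1b2 on chromosome 6. Their log2 fold changes were 1.57 (SE 0.84, limma adjusted p = 0.194) and 1.76 (SE 0.62, limma adjusted p = 0.0874). Their levels differed between libraries of the same group and are given with the libraries below. Genes of this cluster are alike in sequence, so that reads could have been shared among them.

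Among the 24 Slc22a genes, 5 were tested, and in 2 of these every HuR library lay above every IgG library, against 31.3% of all tested genes. Slc22a7 (chromosome 17, 46432183 to 46438457) encodes Oat2, a sinusoidal organic anion transporter. It was at 3.54, 3.67 and 6.59 RPKM across HuR 1 to 3 and at 1.73, 0.841 and 0.0864 RPKM across IgG 1 to 3, with 0.946 RPKM in Input. No IgG library reached the lowest HuR library, and the log2 fold change was 2.03 (SE 0.78, limma adjusted p = 0.101). Slc22a30, of the organic anion transporter cluster on chromosome 19, had a log2 fold change of 1.95 (SE 0.78, limma adjusted p = 0.107), on 587, 81 and 408 reads across HuR 1 to 3 and 47, 58 and 4 reads across IgG 1 to 3.

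Slc22a23 and Slc22a18, also tested, had log2 fold changes of 0.89 and 0.41, each of which changed sign under another setting (lowest -0.24 and -0.84). Both are outside the naming rule and were chosen after their values were seen. Slc22a5, the carnitine transporter Octn2, was below the filter. It was at 0.0168, 1.61 and 1.36 RPKM across HuR 1 to 3, at 0.197 RPKM in IgG 1 and listed at 0 in IgG 2 and 3. Slc22a3, the cation transporter Oct3, was at 0.0268, 0 and 0.570 RPKM across HuR 1 to 3 and at 0.0450, 0.241 and 0.0619 RPKM across IgG 1 to 3, and overlaps the plasminogen gene Plg on the opposite strand.

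Exporters of the canalicular membrane, which faces the bile, were also higher with HuR on average. Abcc2 (chromosome 19, 43782192 to 43840740) encodes Mrp2, which secretes glucuronide and glutathione conjugates. It was at 10.8, 15.4 and 6.93 RPKM across HuR 1 to 3, 4.33, 1.46 and 1.56 RPKM across IgG 1 to 3, and 2.28 RPKM in Input. The groups did not overlap, with 1591 to 3451 reads with HuR and 332 to 586 with IgG (log2 fold change 2.03, SE 0.82, limma adjusted p = 0.110). Abcb4 encodes Mdr2, which flips phosphatidylcholine into bile. It was at 3.72, 3.86 and 1.46 RPKM across HuR 1 to 3 and at 1.19, 0.334 and 0.0744 RPKM across IgG 1 to 3, with 0.692 RPKM in Input (log2 fold change 1.83, SE 0.73, limma adjusted p = 0.108). Its 3 HuR libraries also lay above its 3 IgG libraries.

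Abcg5 and Abcg8 together form the sterol exporter of the canaliculus, and their genes overlap on opposite strands of chromosome 17. Abcg8 was at 5.23, 2.04 and 1.34 RPKM across HuR 1 to 3 and at 1.22, 0.180 and 0.102 RPKM across IgG 1 to 3, without overlap, and at 0.665 RPKM in Input. Its log2 fold change was 1.75 (SE 0.73, limma adjusted p = 0.119). Abcg5 did not pass the filter, at 0.457, 1.41 and 0.781 RPKM across HuR 1 to 3 and 0.267, 0.152 and 0.192 RPKM across IgG 1 to 3, and HuR 1 lay under its Input mean of 0.570 RPKM. The drug exporters Abcg2 (Bcrp) and Abcb1a, a P-glycoprotein, were low. Abcg2 was at 1.51, 0.0433 and 0.741 RPKM across HuR 1 to 3 and at most 0.224 RPKM in IgG RIP. Abcb1a was at 0.549, 0.125 and 0 RPKM across HuR 1 to 3 and at most 0.161 RPKM in IgG RIP.

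For the Abcc exporters Abcc3 and Abcc6 the HuR and IgG libraries overlapped. The difference between genes was not tested. Abcc3 encodes Mrp3, which returns conjugates to blood. It was at 0.956, 5.15 and 1.15 RPKM across HuR 1 to 3 and at 3.61, 1.09 and 2.08 RPKM across IgG 1 to 3, with an Input mean of 2.48 RPKM. Its log2 fold change of -0.10 (SE 0.79, limma adjusted p = 0.926) turned positive without HuR 1 (0.25), HuR 3 (0.16) or IgG 1 (0.24) and fell to -0.73 without HuR 2. Abcc6 encodes Mrp6, whose loss causes ectopic calcification. It was at 1.76, 1.99 and 0.801 RPKM across HuR 1 to 3, 6.14, 1.74 and 3.89 RPKM across IgG 1 to 3, and 1.70 RPKM in Input. Its log2 fold change was -1.05 (SE 0.77, limma adjusted p = 0.334), and it reached -2.33 and passed the threshold (limma adjusted p = 0.0439) under a scaling by trimmed means of log ratios, under which 6.21% of all tested genes were called lower. Abcc6 was the only tested transporter with all 3 IgG libraries above the Input mean, against 20.7% of all tested genes, and none had all 3 below it, against 6.88% of all tested and 6.49% of protein-coding genes.

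Among transporters of organelles, Abcd3 of the peroxisomal membrane was at 7.68, 4.67 and 4.76 RPKM across HuR 1 to 3 and at 3.56, 0.620 and 1.88 RPKM across IgG 1 to 3, without overlap (log2 fold change 1.45, SE 0.79, limma adjusted p = 0.204). Its Input mean was 1.72 RPKM.

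Of 6 tested lipid transporters of the Abca group, 1 had every HuR library above every IgG library, against 31.3% of all tested genes. Abca1, which loads cholesterol onto apolipoprotein A-I, was at 4.10, 2.70 and 1.11 RPKM across HuR 1 to 3 and at 3.62, 0.417 and 0.169 RPKM across IgG 1 to 3. IgG 1 lay within the range of the HuR libraries (log2 fold change 1.08, SE 0.80, limma adjusted p = 0.341). Abca6, of an Abca cluster on chromosome 11, was at 4.14, 8.28 and 2.89 RPKM in HuR RIP and at 3.15, 1.96 and 1.17 RPKM in IgG RIP, with a log2 fold change of 1.07 (SE 0.78, limma adjusted p = 0.334). With libraries centred at their medians both turned to values just under 0, -0.025 for Abca1 and -0.035 for Abca6. Abca2, of lysosomal membranes, was at 0.205, 0.617 and 0.0566 RPKM in HuR RIP and at 2.31, 0.743 and 0.542 RPKM in IgG RIP, a log2 fold change of -1.02 (SE 0.59, limma adjusted p = 0.232). The 1 gene without overlap was Abca8b (log2 fold change 1.56, SE 0.65, limma adjusted p = 0.114).

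Of the translation factors, 3 were tested, and all had low Input levels and a higher mean with HuR. Abce1, which splits ribosomes after termination, was at 2.52, 0.859 and 1.74 RPKM across HuR 1 to 3 and at 0.309, 0.245 and 0.00809 RPKM across IgG 1 to 3, with 0.0984 RPKM in Input (log2 fold change 1.64, SE 0.61, limma adjusted p = 0.0981). Abcf1, an initiation factor, was at 4.27, 1.55 and 1.38 RPKM with HuR and at 0.189, 0.178 and 0.243 RPKM with IgG, close to 0.199 RPKM in Input (log2 fold change 1.91, SE 0.66, limma adjusted p = 0.0837). Both passed the filter through their HuR libraries alone, so that the lack of overlap between groups follows from the filter. Abcf2 was at 2.98, 0.0174 and 0.802 RPKM with HuR and at 0.405, 0.758 and 0 RPKM with IgG, with 0.434 RPKM in Input. Its groups overlapped, and its log2 fold change of 0.68 (SE 0.65, limma adjusted p = 0.449) fell to -0.42 under another setting. Abcf3, not tested, was at 2.99, 0.0556 and 2.29 RPKM with HuR and at no more than 0.208 RPKM with IgG. Abcf1, Abcf2 and Abcf3 are outside the naming rule and were chosen after their values were seen.

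Against Input, the question was whether HuR RIP held more of each mRNA than the lysate did. This comparison has no test, since Input is a single column. In 18 of the 29 tested transporters all 3 HuR libraries lay above the Input mean, against 68.9% of all tested genes and 76.1% of protein-coding ones. None had all 3 HuR libraries below it, against 3.9% and 1.27%. Among the named genes the mean HuR level was 7.23 times Input for Slco1b2, 6.50 times for Slco1a1, 4.84 times for Abcc2, and 17.3 times for Abce1, whose Input mean was 0.0984 RPKM. It was 0.974 times Input for Abcc3, 0.891 for Abcc6 and 0.530 for Abca2. Abce1, Abcf1 and Slco1a4 passed the filter through their HuR libraries alone, with Input means of 0.0984, 0.199 and 0.240 RPKM. Their place among the 18 above Input thus follows from the filter, and the filter also kept the ratio of Abce1 high. Over all 87 genes the median of the mean log2 ratio to Input was 0.15, and 0.043 without HuR 2. Across the 87 genes the Spearman correlation with Input was 0.84 for the HuR mean and 0.86 for the IgG mean, as a description over genes that share libraries and annotated lengths.

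The gain with HuR lay mostly in the last exon, which usually holds the 3′ UTR. The last exon of Slco1b2 (chr6:141685390-141686646) was at 77.8, 58.8 and 70.0 RPKM across HuR 1 to 3, at 23.8, 3.4 and 0.469 RPKM across IgG 1 to 3, and at 4.35 RPKM in Input. It makes up 24.9% of the gene's exon length and held 93.1%, 79.8% and 93.2% of its reads across HuR 1 to 3, 81.3%, 73.6% and 36.2% across IgG 1 to 3, and 40.6% in Input. The shares of IgG 1 and HuR 2 were thus close. Over the other exons of Slco1b2 the HuR libraries were at 1.92, 4.93 and 1.70 RPKM, with 2.11 RPKM in Input, so that HuR 2 lay above Input there and the other two slightly below. As differences of mean log2(RPKM + 0.5) between HuR and IgG, the last exon gave 3.93 and the other exons 1.38.

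The same contrast appeared across the family. The difference was larger in the last exon than in the other exons for 26 of the 29 tested transporters (89.7%), and for 86.4% of 3679 tested protein-coding genes with at least 3 exons. Its median over the transporters was 1.99 in the last exon and 0.33 elsewhere, beside 1.59 and 0.14 over those genes. In the last exon 14 of the 29 had every HuR library above every IgG library, against 44% of those genes. In the other exons 3 did, Abcb4, Abca6 and Abcf1, against 8.56%. All 3 HuR libraries lay above Input in the last exon of 20 transporters, against 70.7%, and in the other exons of 7, against 22.6%. In each of these shares the transporters lay near the other genes.

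**Figure D3:**
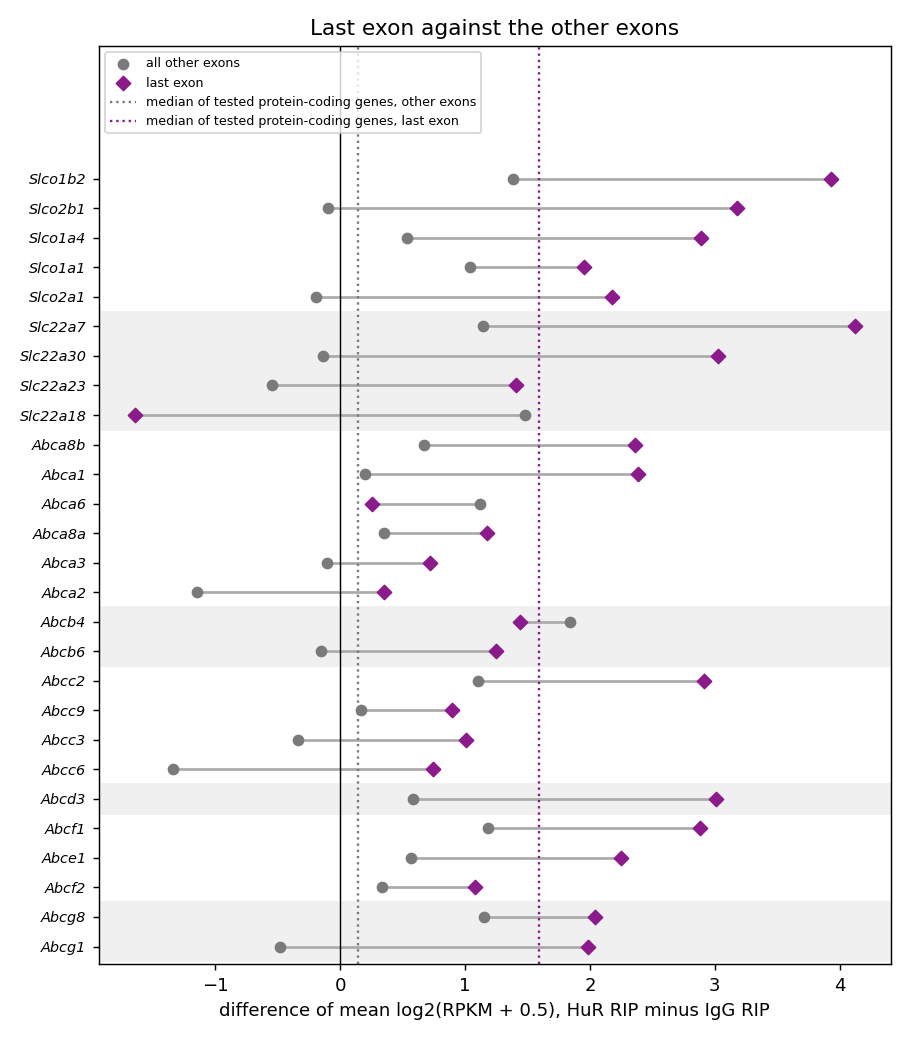
Difference of mean log2(RPKM + 0.5), HuR RIP minus IgG RIP, in the last exon (purple diamonds) and over all other exons together (grey circles) of 27 of the 29 tested transporter genes; dotted lines mark the medians of tested protein-coding genes, 1.59 and 0.14. The diamond lies to the right of the circle for 24 of the 27 genes drawn, and Abcb4, Abca6 and Slc22a18 are the exceptions.

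Among genes with the larger difference in the last exon, Slco2b1 differed by 3.18 in its last exon and -0.10 elsewhere, Slc22a30 by 3.02 and -0.14, and Slc22a7 by 4.12 and 1.14. The last exon of Slc22a7 was at 13.5, 9.47 and 26.3 RPKM across HuR 1 to 3, at no more than 1.58 RPKM with IgG and at 0.848 RPKM in Input. The gap was narrower than in Slco2b1, Slc22a30 and Slc22a7 for Abcc2, with 2.91 in the last exon and 1.10 elsewhere. It was also narrower for Abcd3, with 3.01 and 0.59. The opposite order was seen in Slc22a18, with a wide gap (-1.64 and 1.48), and in Abcb4 (1.44 and 1.84) and Abca6 (0.26 and 1.12). The last exon of Slc22a18, of 250 bases, was at 0.302, 0 and 2.82 RPKM across HuR 1 to 3. Across IgG 1 to 3 it was at 0, 2.25 and 29.0 RPKM, so that IgG 3 stood far above every other library. Abcb4 and Abca6 have short annotated 3′ UTRs, of 51 and 149 bases. For Slc22a30 the last exon measured here has 451 bases and its longest annotated 3′ UTR 1081 bases. The printed site of Slc22a30 thus need not lie in that exon.

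The share of reads in the last exon also differed between libraries as a whole. Over the tested protein-coding genes its median was 89.2%, 72.2% and 88.5% across HuR 1 to 3, 52.7%, 42.5% and 28.1% across IgG 1 to 3, and 42.8% in Input. Over the transporters, whose last exons are a smaller part of the gene (median 24.9% of length, beside 39.3%), it was 72.0%, 42.8% and 75.5% across HuR 1 to 3, 38.0%, 25.2% and 3.98% across IgG 1 to 3, and 22.8% in Input. The part of this library-wide shift in the fold changes of single genes was not tested.

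**Figure D4:**
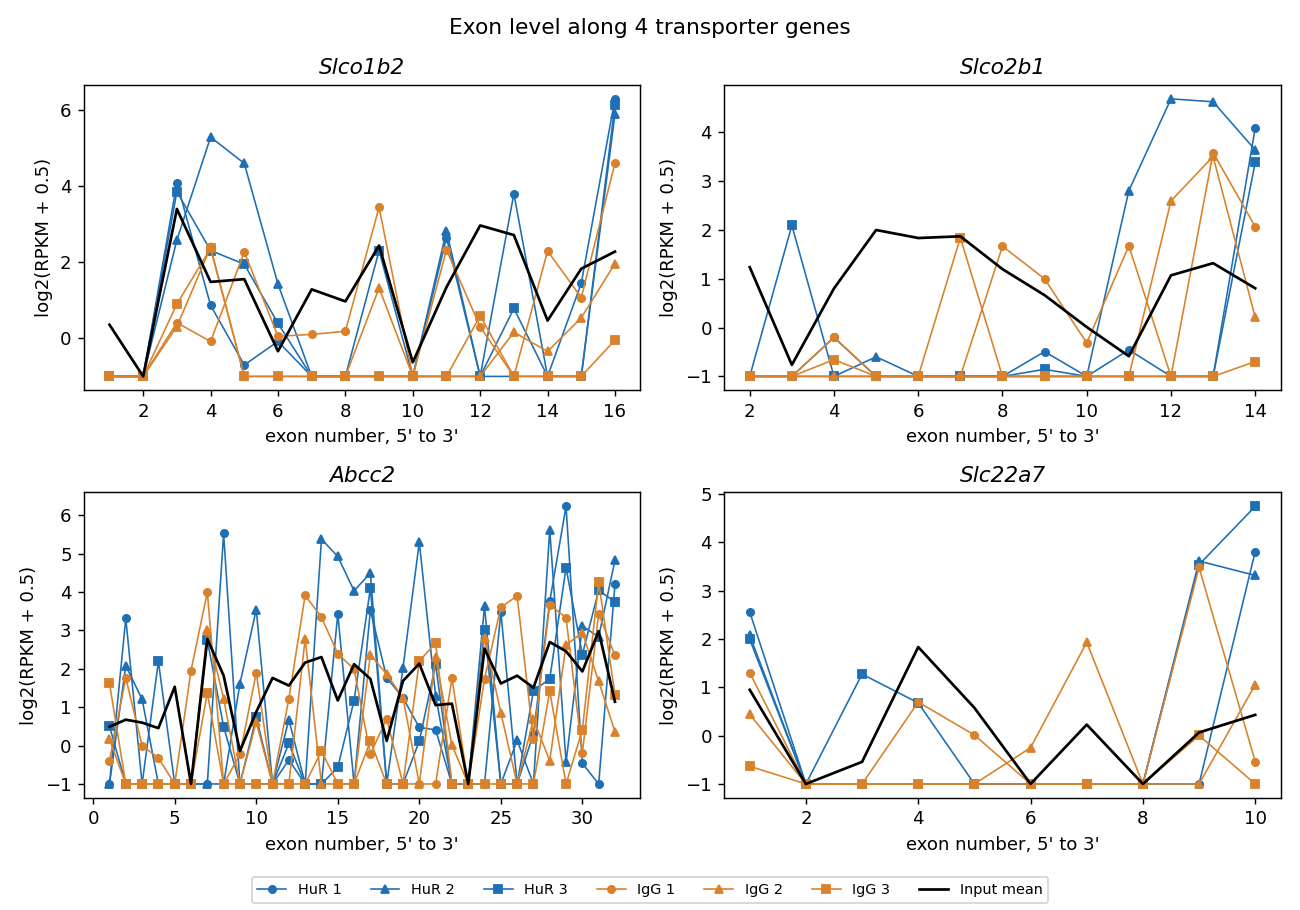
Exon level as log2(RPKM + 0.5) along Slco1b2, Slco2b1, Abcc2 and Slc22a7, by exon number from 5′ to 3′, with 1 blue line for each HuR library, 1 orange line for each IgG library and a black line for the Input mean; exons without a value in the table are not drawn. All 3 HuR libraries end above the IgG and Input lines at the last exon of each of the 4 genes.

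Between these ends the HuR signal was uneven. In Slco2b1, HuR 2 alone reached 25.2 RPKM in exon 12 and 24.2 RPKM in exon 13, where HuR 1 and HuR 3 were listed at 0; in exon 13 IgG 1 and IgG 2 were at 11.5 and 10.9 RPKM. In Slco1b2, HuR 2 reached 38.5 RPKM in exon 4, against 1.32 and 4.45 RPKM in HuR 1 and HuR 3. Exon 12 of Slco1b2, at 7.31 RPKM in Input, was listed at 0 with HuR throughout.

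The length of the 3′ UTR moved with the fold change. The 16 tested transporters with a longest annotated 3′ UTR of 1000 bases or more gave 1.6 as the median of their log2 fold changes, and all 16 were above 0. The 13 with a shorter one had a median of 0.41, and 7 of them were above 0. Genes that passed the filter through the HuR libraries alone are above 0 because of the filter. They include Slco1a4 and Abce1 among the 16 and Abcf1 among the 13. Among all tested protein-coding genes the medians were 1.17 and 0.90, with 95.8% and 83.8% above 0. Of the 16, Abca1, Abcc9 and Slc22a23 changed sign under another setting. Across genes, the Spearman correlation of fold change with 3′ UTR length was 0.35 over 29 transporters and 0.18 over 3926 genes, given as descriptions; the genes share their libraries, and longer 3′ UTRs also hold longer runs of T (0.73 and 0.66).

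Motifs known for HuR occurred in these transporters at shares near those of other tested genes. Written as DNA and searched on the transcript strand, TTTTTTT occurred in the 3′ UTR of 14 of the 29 (48.3%), against 47.1% of tested and 38.8% of all protein-coding genes. TTTATTT occurred in 11 (37.9%), against 41.5% and 38.0%, and ATTTA, which can lie within it, in 19 (65.5%), against 69.1% and 65.2%. Among single genes, the 3′ UTR of Abcc2 (3183 bases) held 4 overlapping matches to TTTTTTT and 12 to ATTTA. Slco1b2 held 1 and 4 in 1040 bases, and the 1 TTTTTTT is that of the printed site. Slco2b1 held no TTTTTTT and 3 ATTTA in 2237 bases, and Slc22a7 held neither in 298 bases. In the other direction, the 3′ UTR of Abcc3, with a log2 fold change of -0.10, carried 8 matches to TTTTTTT and a run of 12 T. Those of Abcc6 (456 bases) and Abca2 (664 bases) held no TTTTTTT.

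Several transporters differed widely between libraries of one group. Slco1a1, known to be higher in male than in female mouse liver, was at 8.10, 2.29 and 7.06 RPKM across HuR 1 to 3, at 2.74, 0.157 and 2.75 RPKM across IgG 1 to 3, and at 0.895 RPKM in Input. HuR 2 was the low library of its group and lay below 2 of the IgG libraries. Slc22a30 was at 6.55, 0.913 and 4.50 RPKM across HuR 1 to 3 and at 0.880, 0.646 and 0.0412 RPKM across IgG 1 to 3, again lowest in HuR 2. Slco1a4, known to be higher in females, was at 1.52, 3.24 and 0.797 RPKM across HuR 1 to 3 and at 0.428, 0.0355 and 0.0109 RPKM across IgG 1 to 3, highest in HuR 2. Without HuR 2 the log2 fold changes were 2.08 for Slco1a1 and 2.65 for Slc22a30, and 1.36 for Slco1a4 (limma adjusted p = 0.191, 0.0983 and 0.170).

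HuR 2 also held transporters that the other HuR libraries nearly lacked. Of the 58 transporters below the filter, 19 were highest in HuR 2 and 12 in HuR 3. Some of the 19 rest on no more than 3 reads. The share among all genes below the filter was not counted, so whether the number is particular to transporters is not known. The next 3 are outside the rule for named genes and were chosen after their values were seen. Slc22a26, an organic anion transporter gene of the chromosome 19 cluster, was at 8.38 RPKM in HuR 2, 0 in HuR 1 and 0.252 RPKM in HuR 3, and at most 0.259 RPKM in IgG RIP. Slc22a27, of the same cluster, was at 3.08 RPKM in HuR 2 and 2.71 RPKM in IgG 3, and at most 0.0698 RPKM in the other RIP libraries. Slco1a5 was at 3.03 RPKM in HuR 2 and at most 0.0749 RPKM elsewhere among the RIP libraries.

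**Figure D5:**
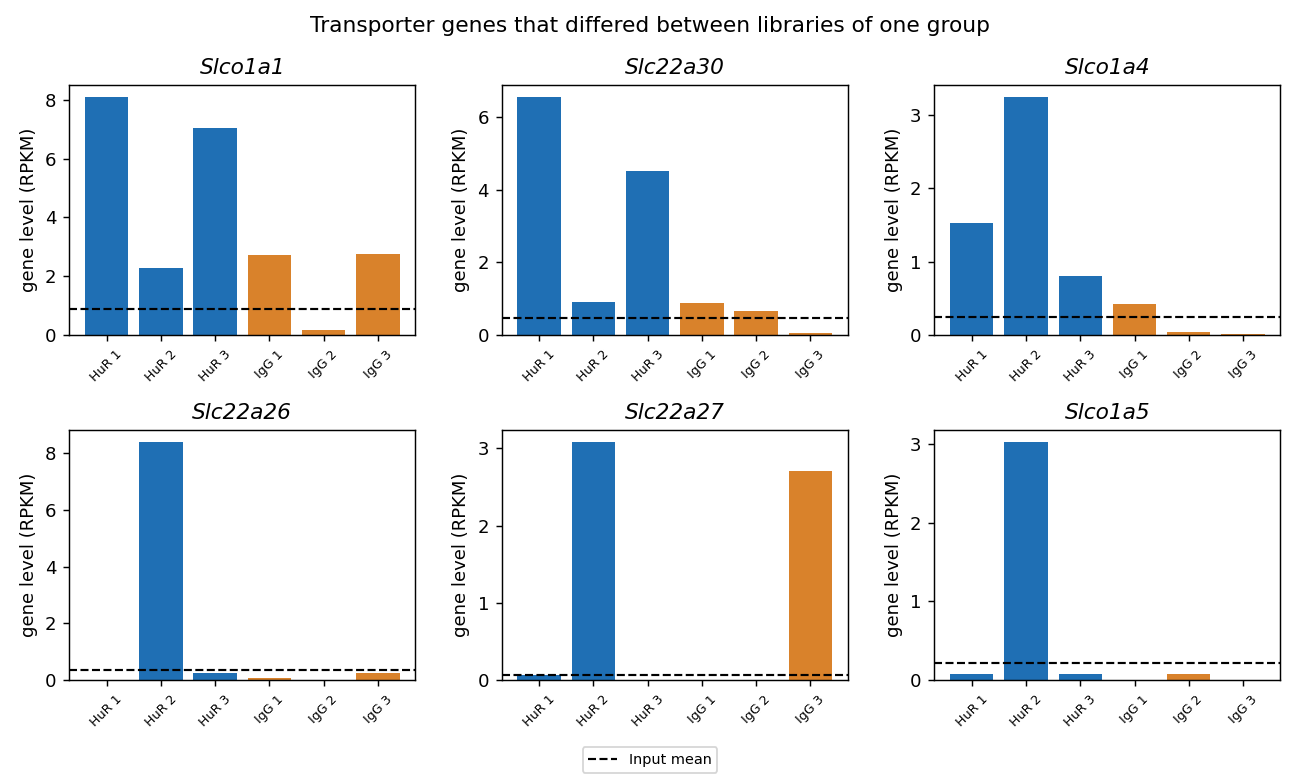
Gene level in RPKM of 6 transporter genes in each RIP library (blue bars HuR 1 to 3, orange bars IgG 1 to 3; 1 library per bar, so no error bars), with the Input mean as a dashed line. Slco1a1 and Slc22a30 are lowest in HuR 2 among the HuR libraries, whereas Slco1a4, Slc22a26, Slc22a27 and Slco1a5 are highest there.

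Genes that mark the sex of a mouse also differed between libraries, and among the HuR libraries they did so together with these transporters. Xist, expressed from the inactive X chromosome of females, was at 10.2 RPKM in HuR 2 and at 0.00210 and 0.463 RPKM in HuR 1 and HuR 3, and it was at 0.00704, 0.103 and 0.359 RPKM across IgG 1 to 3. The 4 Y-linked genes Ddx3y, Eif2s3y, Kdm5d and Uty summed to 2.28, 0.0410 and 3.52 RPKM across HuR 1 to 3, to 1.21, 0.340 and 0 RPKM across IgG 1 to 3, and to 0.521 RPKM in Input. Of genes known as female-biased in mouse liver, 6 (Cyp2b9, Sult2a1, Sult2a2, Sult3a1, Cyp3a41a and Cyp17a1) summed to 0.407, 56.0 and 2.85 RPKM across HuR 1 to 3 and to 1.45, 0.729 and 15.2 RPKM across IgG 1 to 3. The 6 male-biased genes Cyp2d9, Cyp7b1, Mup20, Elovl3, Hsd3b5 and Cyp4a12a summed to 192, 10.8 and 256 RPKM across HuR 1 to 3 and to 74.3, 21.4 and 22.4 RPKM across IgG 1 to 3. Among the IgG libraries the pattern held only in part. IgG 3 had the Y-linked genes at 0 and the highest female-biased sum. As in HuR 2, Slc22a26 (0.259 RPKM) and Slc22a27 (2.71 RPKM) were highest there within the group, and Slc22a30 (0.0412 RPKM) was lowest. Against the pattern, IgG 3 had the highest IgG level of Slco1a1 (2.75 RPKM, beside 2.74 RPKM in IgG 1) and the lowest of Slco1a4. Slco1a5 was at 0 in IgG 3. The lists of genes that mark sex were written after values were seen. The HuR 2 column carries the letter M in its name, and by the numbering of the authors' fold columns it would be HuR 3. The part of these differences between libraries in the fold changes was not tested.

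The 58 transporters below the filter were mostly near the limit of the data. Of them, 35 stayed under 0.5 RPKM in all 6 RIP libraries, 6 were listed at 0 in all of them, and 4 of these 6 were at 0 in Input as well. Counting all 87 genes, 58 had a higher mean with HuR, 23 a higher mean with IgG, and 6 were equal at 0. This split was not counted over all genes of the study. Among tested genes, the log2 fold change was above 0 for 79.1% of all and 90.4% of protein-coding ones.

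Other genes of hepatic transport gave similar values. Of a list of 39 carriers, scaffolds and regulators whose names the rule for the transporters did not take, 28 were tested. limma called 0 of these higher and 0 lower, and their median log2 fold change was 1.44. In 14 of the 28 every HuR library lay above every IgG library, against 31.3% of all tested and 38.9% of tested protein-coding genes. In 1 every HuR library lay below, against 3.48% and 0.634%. In 22 every HuR library exceeded Input, against 68.9% and 76.1%. The examples that follow were picked after their values were seen. Slc38a4, an amino acid carrier, was at 28.5, 17.2 and 27.2 RPKM across HuR 1 to 3 and at 7.07, 3.21 and 0.934 RPKM across IgG 1 to 3 (log2 fold change 2.82). Slc10a1, the bile acid carrier Ntcp, had a log2 fold change of 1.21, and Slc2a2, the glucose carrier Glut2, 2.08. Hnf4a, a nuclear receptor that drives many of these genes, had 2.02, and Nr1h4, the bile acid receptor Fxr, had -1.19 with every HuR library below every IgG library.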

How the data were processed

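The deposited table holds exon values for 6 RIP libraries and 1 combined Input column. Per the file headers the values are RPKM by the authors, with log2 fold columns over Input and a p-value and q-value for HuR against IgG per exon. The test behind them is not given in the sources used here. Bowtie2, featureCounts and the build mm10 are named in the submitters' processing notes, without tool versions. In the authors' deposited table the lowest q-value of any exon was 0.11.

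In the deposited table the decimal point was missing from values of 1 and above. They were restored from their digits with the help of the authors' fold columns, and all 138826 distinct lines of values then matched all 6 folds. Exon RPKM times exon length was summed over all 388562 lines per gene and divided by merged exon length. Read numbers follow from library sizes fitted to the step between values; 84.9% to 89.0% of gene sums were whole within 0.05 read. They carry counting error, and reads are not independent molecules. Exon values hold fractions of reads, so no count model was run.

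HuR and IgG were compared with limma 3.58.1 in R 4.3.3 (trend and robust moderation, two-sided) on log2(RPKM + 0.5), which understates the changes of low genes. Genes with 0.5 RPKM or more in at least 3 of 6 libraries were kept (5510), and p-values were Benjamini-Hochberg adjusted over them, with a threshold of 0.05. P-values measure the spread between these libraries. The fit was tested on simulated data, with a spread set below the median spread of the IgG libraries, equal for all genes, and without shifts of whole libraries. That test thus does not show how the fit performs at the spread of the real libraries. Input entered no test. Gene positions, last exons and 3′ UTRs came from GENCODE M21, in which 99.28% of listed exons have the same coordinates and all 87 transporters are found. Tables and figures were made with matplotlib 3.10.9, scipy 1.17.1, pandas 2.3.3 and numpy 2.4.6 under Python 3.11.15.

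The totals include 2 tested transporters that are not reported singly here and are not drawn. The transporters, the gene lists and the tests were chosen with earlier results of these data known. Genes were named by a rule: any past the threshold, the 6 highest and 4 lowest fold changes, the 6 highest and 3 lowest against Input, and 23 well-known hepatic members whatever their values. Alternatives were other scalings, filters, pseudocounts and moderation, a replicate block, protein-coding genes only and leaving out libraries.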

Additional observations from a re-analysis of the deposited data

How the results depend on the processing

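The threshold count and the medians depended on several choices. For all tested genes, limma called 37 higher and 7 lower. It called 1 and 18 with libraries centred at their medians, 50 and 342 with scaling by trimmed means of log ratios, 5 and 4 after quantile normalization, 145 and 21 with a filter of 1 RPKM, 3 and 1 with a pseudocount of 1, and 728 and 8 with protein-coding genes only. It called 0 and 0 without a filter, without trend, and on leaving out HuR 3 together with IgG 1; these 2 have the largest share of reads in listed exons within their groups, and leaving them out was chosen after seeing the data. Leaving out 1 library gave 0 to 724 higher (0 without IgG 2, 724 without IgG 1, 15 without HuR 1, 90 without HuR 2, 72 without HuR 3) and 0 to 35 lower (35 without IgG 3).

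Among transporters, 0 higher became 2 with a filter of 1 RPKM (Slco1b2 among them, with 4.19% of genes called). The number was 9 with protein-coding genes only, including the 4 that passed the filter through the HuR libraries alone. It was 0 to 6 when a library was left out. For these transporters, 0 lower became 1 under trimmed-mean scaling (Abcc6). Their median of 1.43 was 0.32 when centred, 0.37 with trimmed means, 0.47 after quantile normalization, 0.27 without a filter (81 genes), 2.03 with a pseudocount of 0.1 and 1.03 with a pseudocount of 1. It ran from 0.98 to 1.81 with 1 library left out. Centring moved the median of all genes from 0.92 to -0.18, so that the transporters lay 0.51 above it either way, and 0.28 above it with trimmed means. Signs changed for Abca1 (-0.025 centred, -0.075 after quantile normalization), Abca6 (-0.035 centred, -0.32 with trimmed means) and Abcc3 (-0.73 to 0.25 with 1 library left out, 0.50 without HuR 3 and IgG 1). The cause was not tested. The median ratio of HuR to Input over 87 genes, 0.15, was 0.23 with a pseudocount of 0.1 and 0.043 to 0.17 with 1 HuR library left out.

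With the replicate number as a block, limma called 0 genes higher and 0 lower. Deviations of same-numbered libraries correlated at 0.14, 0.12 and 0.09, each library best with its own number. This is a hint from the data and not from the design, and it depends on the numbering of HuR 2 and HuR 3. HuR 3 with IgG 2 and HuR 2 with IgG 3, the pairs by the fold columns, correlated at -0.068 and -0.0015. The numbers are not taken to pair the samples.

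Low values limit the rest: 58 of 87 transporters were too low to test, and no Input spread is available.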
